A study of Homo sapiens with 6 samples.

Results

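Replicate 1 was compared with replicate 2 inside each group of a knockdown series in H1299 cells, to describe which gene programs differed between same-group arrays in the same direction in all 3 groups. The 3 arrays titled replicate 1 and the 3 titled replicate 2 are all 6 arrays of the series. Of 54675 probe sets, the 22330 with a mean of at least 4 on the log2 scale over the 6 arrays were used. They gave 10526 of 19775 measured genes, each represented by its brightest probe set with a single gene symbol. The lowest mean inside this limit was 4.0 and the highest outside it 3.999.

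H1299 is an established human non-small-cell lung cancer line. All cells were infected with lentivirus for 72 hours, grown in RPMI with 10% fetal calf serum and lysed in Trizol, and 250 ng of total RNA went into the labelled cRNA of each array. The scramble group carried a control shRNA, and the groups shRNA1 (RBP2 KD1 in the labels) and shRNA2 (RBP2 KD2) each carried 1 shRNA against RBP2, the older name of the histone demethylase KDM5A. Each group had 2 arrays. The labels do not say whether the replicate numbers stand for separate cultures, infections, extractions or array runs, so a p-value here speaks for the scatter among these arrays alone, and that scatter may be technical. A difference is given throughout as replicate 1 minus replicate 2 on the log2 scale, with positive values where replicate 1 read higher. In bulk RNA, a different share of cells in a state and a different amount of RNA per cell cannot be told apart.

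Several gene programs are known to follow how fast and how densely cultured cells grow. Mitotic genes are transcribed mainly late in the cell cycle and replication genes around the start of S phase, so their level in bulk RNA follows the share of cells in those phases. Ribosome biogenesis, nucleotide synthesis and the mitochondrial ribosome belong to biosynthetic growth. Hypoxia genes respond through HIF1A to low oxygen, and CCN1, CCN2 and their kin respond to YAP and TAZ, which are active in spread, sparse cells. This is background on the programs and not a cause of the differences described here.

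The deposited values had already been normalized between arrays, so a like scale was set by the processing. The array medians over the tested probe sets lay between 7.65 and 7.73. The arrays of a pair correlated across probe sets at 0.984 for shRNA1, 0.991 for shRNA2 and 0.987 for scramble. KDM5A itself read 7.42 and 7.27 with shRNA1, 6.66 and 6.72 with shRNA2, and 9.35 and 9.42 with scramble, in the order replicate 1 and replicate 2. Its mean replicate difference was 0.005 ± 0.086 (limma SE, 3 pairs), far smaller than its differences between groups. Each ± value here and below is the SE of the limma fit described below. That SE draws on the scatter of all tested probe sets and not on the gene's 3 pairs alone. The line's mesenchymal intermediate filament gene VIM read 14.9 to 15, the keratin genes KRT8 and KRT18 read 9.80 to 10.7 and 12.8 to 13.2, and the epithelial cadherin gene CDH1 stood at the lowest deposited value, 2.24, on all 6 arrays.

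The within-group differences of the 3 groups agreed in part across genes. They correlated across probe sets at 0.70 between shRNA1 and scramble, 0.51 between shRNA1 and shRNA2, and 0.48 between shRNA2 and scramble. No array enters more than 1 of these differences, and the correlation is a description over probe sets, which are not independent replicates. The spread of the differences was largest in shRNA1 (SD 0.43 over probe sets), smallest in shRNA2 (0.33) and between them in scramble (0.38). A difference of at least 0.5 in either direction was seen in 20.3% of probe sets in shRNA1, 11.3% in shRNA2 and 16.3% in scramble.

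**Figure D1:**
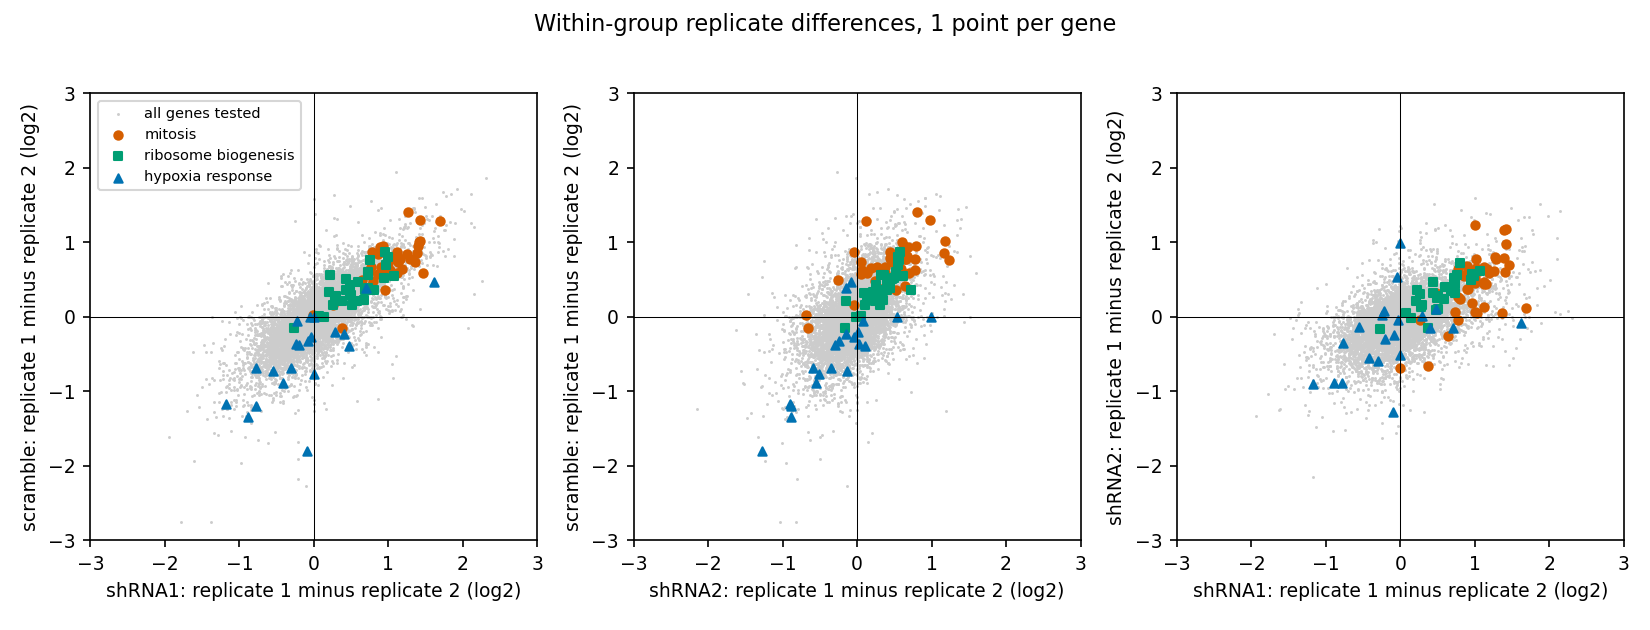
Replicate 1 minus replicate 2 on the log2 scale in 1 group against the same difference in another, with 1 grey point for each of 10526 genes and coloured points for 3 gene lists. The cloud runs along the diagonal in all 3 panels, with mitosis and ribosome biogenesis genes mostly in the upper right quadrant.

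Limma with group as a block, fitted on all 22330 probe sets with 2 residual degrees of freedom, called 0 probe sets at a Benjamini-Hochberg adjusted p under 0.05, and the smallest adjusted p was 0.061. At an unadjusted p under 0.05 it gave 6872 probe sets, 30.8% of those tested. At an adjusted p under 0.10 there were 2147 probe sets higher in replicate 1 (9.61%) and 1726 higher in replicate 2 (7.73%). The count of 0 was not shared by all settings: 2053 probe sets passed at 0.05 when the 4280 probe sets with a value shared by 2 or more arrays, were left out, and 3212 passed with limma's trend and robust prior. A permutation over 3 pairs cannot go below a two-sided exact p of 0.25.

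Because no probe set passed the main test, genes are described here by a rule of size: the same sign in all 3 groups, with each of the 3 differences at least 0.5. Among probe sets, 431 met it with replicate 1 higher (1.93%) and 275 with replicate 2 higher (1.23%), and with a limit of 1 in place of 0.5 the counts were 29 (0.13%) and 17 (0.0761%). Among genes the counts were 176 (1.67%) and 147 (1.4%). The same sign in all 3 groups, whatever the size, was seen in 2787 genes higher in replicate 1 (26.5%) and 3048 higher in replicate 2 (29%). Each list below is to be read against these shares and against the median difference of all genes tested, which was -0.011.

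**Figure D2:**
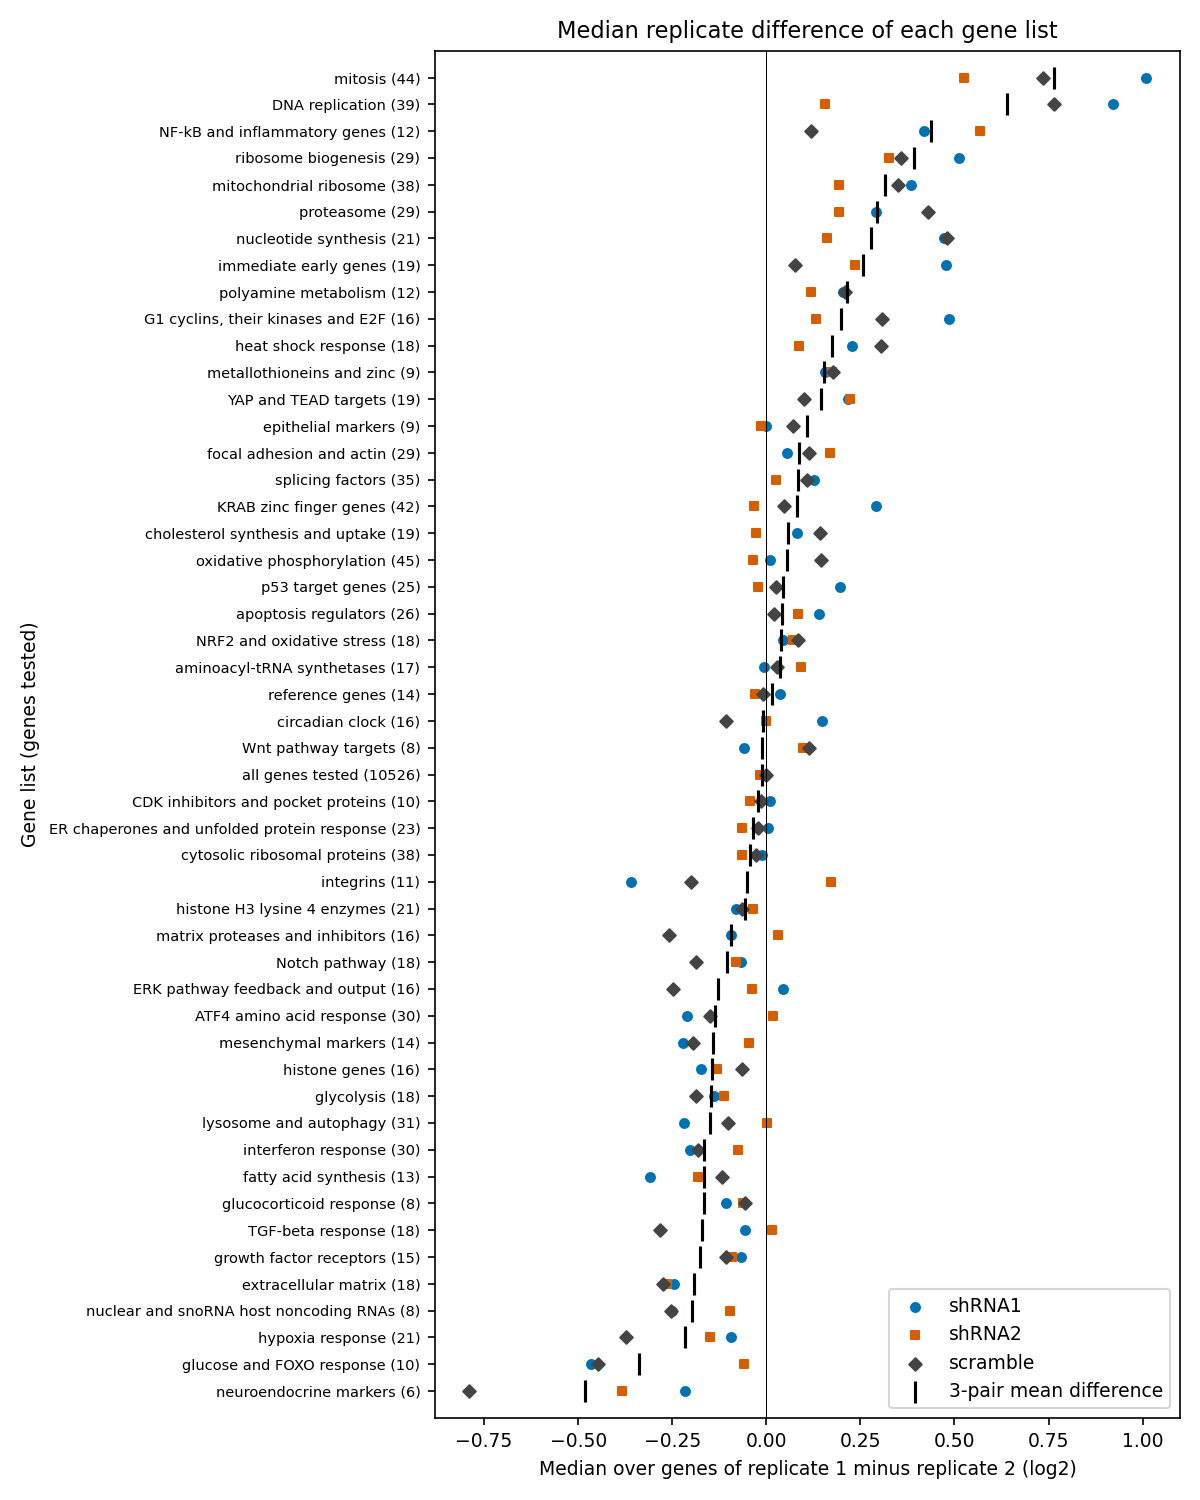
Median replicate difference (log2) of the 49 gene lists with at least 5 genes tested and of all genes, with 1 marker per group and a bar for the mean difference over the 3 pairs. Mitosis and DNA replication lie furthest to the right in shRNA1 and scramble, all genes and the reference genes lie near 0, and the neuroendocrine, glucose and hypoxia lists lie furthest to the left.

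Mitotic genes, as a list, read higher in replicate 1 in all 3 groups. Of 45 mitosis genes listed, 44 passed the level filter, and 39 of these 44 were higher in replicate 1 in all 3 groups, against 26.5% of all genes. None was higher in replicate 2 in all 3. In 21 of the 44 each difference was at least 0.5, against 1.67% of genes, and 39 had an unadjusted p under 0.05 with replicate 1 higher, against 16% of genes. The median difference over the list was 0.76, being 1.01 in shRNA1, 0.52 in shRNA2 and 0.74 in scramble.

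The start of a mitotic gene often carries a cell cycle homology region (CHR, TTTGAA), read by the DREAM complex and B-MYB with FOXM1, and CCAAT boxes (CCAAT), bound by NF-Y. Promoter windows of 250 bases before the gene start were taken from RefSeq (GRCh38.p14), where 38 of the 44 tested mitosis genes had 1, and both strands were searched. TTTGAA was found in 21 of the 38 (55.3%), against 8.25% of the promoters of tested genes and 13.6% of all promoters. CCAAT was found in 71.1%, against 36.3% of the promoters of tested genes, and both motifs together in 44.7%, against 3.5%. TTTGAA was in 0 of 34 promoters of replication genes. It was in 17.4% of the 138 promoters of genes that met the rule of size with replicate 1 higher, against 4.55% of 110 with replicate 2 higher. The genes with replicate 1 higher include 21 of the mitosis list, so the 17.4% overlaps with the share of that list. A match is a description of the letters and not a binding site.

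The 130 bases before the start are shown for the 5 mitosis genes with a TTTGAA match there that had the largest differences shared by all 3 groups and no neighbouring gene over the window. They are shown because mitosis had the largest median of the lists with at least 5 tested genes. Each is written 5′ to 3′ on the gene's strand, ends at the base before the start, and has the CHR and the CCAAT box in capitals, on either strand (TTCAAA and ATTGG on the reverse strand). In CDCA8 the last ATTGG overlaps the TTTGAA.
CDCA8: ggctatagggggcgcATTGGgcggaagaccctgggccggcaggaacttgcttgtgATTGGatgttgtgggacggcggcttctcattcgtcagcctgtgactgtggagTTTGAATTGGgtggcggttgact
CENPA: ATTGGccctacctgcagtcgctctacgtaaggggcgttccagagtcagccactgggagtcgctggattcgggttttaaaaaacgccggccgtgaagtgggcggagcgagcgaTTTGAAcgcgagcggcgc
ASPM: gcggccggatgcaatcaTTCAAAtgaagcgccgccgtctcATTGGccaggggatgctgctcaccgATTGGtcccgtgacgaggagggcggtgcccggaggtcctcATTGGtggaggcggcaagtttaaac
CDC20: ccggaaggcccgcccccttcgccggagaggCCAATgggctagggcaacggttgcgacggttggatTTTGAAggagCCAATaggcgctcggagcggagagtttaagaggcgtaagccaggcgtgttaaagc
PRC1: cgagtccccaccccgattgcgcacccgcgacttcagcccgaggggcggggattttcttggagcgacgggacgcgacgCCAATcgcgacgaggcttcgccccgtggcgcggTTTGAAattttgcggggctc
The stretches lie in GRCh38.p14 at chr1:37692386-37692515 on the plus strand for CDCA8, chr2:26785926-26786055 on the plus strand for CENPA, chr1:197146670-197146799 on the minus strand for ASPM, chr1:43358851-43358980 on the plus strand for CDC20 and chr15:90994536-90994665 on the minus strand for PRC1.

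CDCA8, the borealin subunit of the chromosomal passenger complex, read 9.23 and 7.81 with shRNA1, 4.71 and 3.73 with shRNA2, and 9.08 and 7.78 with scramble. Replicate 1 was the higher array in each group, by 1.42, 0.98 and 1.30. The mean difference was 1.24 ± 0.11 (limma SE, 3 pairs, with a limma adjusted p of 0.061, and 0.026 without tied probe sets). Its partner BIRC5, survivin, read 11.01 and 9.59, 6.81 and 5.64, and 10.58 and 9.56 in the same order, a mean difference of 1.20 ± 0.11. AURKB, the kinase of that complex, gave differences of 1.41, 0.60 and 1.01. PLK1, a kinase of mitotic entry, had differences of 1.36, 0.05 and 0.74, with the shRNA2 arrays at 3.24 and 3.19.

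The centromere and kinetochore genes had the largest median of the mitotic roles, 0.93 over 6 genes, and all 6 were higher in replicate 1 in every group. CENPA, the centromeric histone H3 variant, read 8.61 and 7.22 with shRNA1, 5.93 and 4.75 with shRNA2, and 8.89 and 8.03 with scramble. Its mean difference of 1.14 ± 0.12 is 2.21-fold. SPC25 and NUF2, subunits of the NDC80 complex that holds microtubules, had mean differences of 1.16 and 1.04. CENPE, a kinetochore motor, differed by 1.02 in shRNA1 and 0.57 in scramble and by 0.06 in shRNA2.

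Spindle checkpoint and anaphase genes had a median of 0.82 over 8 genes, of which 6 had replicate 1 higher in every group. MAD2L1, a checkpoint inhibitor of the anaphase-promoting complex, gave 1.29, 0.78 and 0.78, and CDC20, the activator of that complex, gave 1.01, 0.66 and 0.78. PTTG1, securin, was split, with 0.78 in shRNA1 and 0.87 in scramble but -0.05 in shRNA2. Separase, ESPL1, which securin holds in check, read 10.18 and 8.56, 6.07 and 5.02, and 9.57 and 8.42, a mean difference of 1.28 ± 0.14.

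The cyclins and CDK1 control genes had a median of 0.67 over 7 genes. CCNB1, the mitotic cyclin, read 12.67 and 11.78 with shRNA1, 9.79 and 9.11 with shRNA2, and 12.43 and 11.50 with scramble. Its differences were 0.89, 0.68 and 0.94. CDK1 gave 0.86, 0.57 and 0.58, and CCNA2, the cyclin of S and G2 phase, 1.13, 0.47 and 0.73. The phosphatase gene CDC25B was the exception, at -0.01, -0.68 and 0.03.

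Kinesins and spindle proteins had a median of 0.61 over 9 genes, condensin and topoisomerase genes 0.62 over 5, and cytokinesis genes 0.81 over 3. KIF20A, a kinesin of the central spindle, was the 1 tested mitosis gene with its highest positive difference in shRNA2, at 1.24 against 1.00 and 0.76. ASPM, a spindle pole protein, gave 1.12, 0.67 and 0.82, and PRC1, which bundles microtubules at the midzone, 1.12, 0.44 and 0.88. KIF18A, a kinesin that shortens microtubule tips, was mixed at 0.37, -0.66 and -0.15. The remaining 28 probe sets of mitosis genes, each dimmer than the 1 used for its gene, included 21 with replicate 1 higher in all 3 groups. In 0 of them was replicate 2 higher in all 3. They read the same genes on the same arrays and are no separate support.

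**Figure D3:**
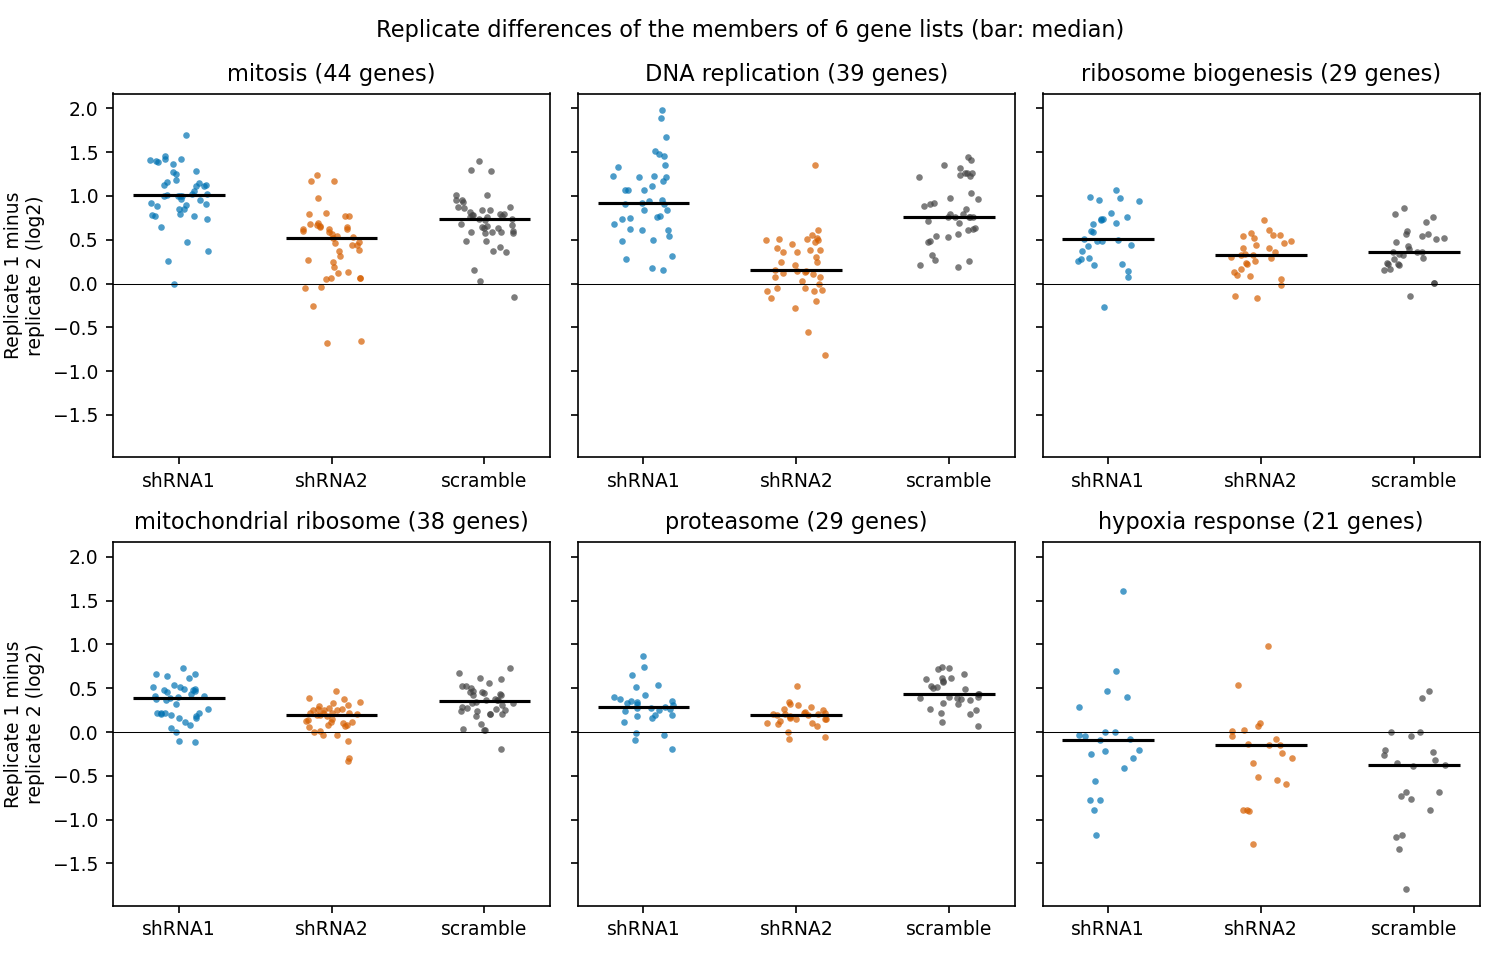
Replicate 1 minus replicate 2 (log2) of each tested member of 6 gene lists in each group, with 1 point per gene and a bar at the median. The medians are above 0 in all 3 groups in the first 5 panels and below 0 in the hypoxia panel, and the shRNA2 median of the DNA replication list is 0.16.

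DNA replication genes read higher in replicate 1 mainly with shRNA1 and scramble. The list median was 0.64, being 0.92 in shRNA1, 0.77 in scramble and 0.16 in shRNA2. These genes also read lower with shRNA2, with a median difference from scramble of -1.70, against -0.13 with shRNA1. For the mitosis list that difference was -3.12 with shRNA2, where its median replicate difference was 0.52. The part of level in the smaller shRNA2 differences was not tested. Of 40 genes listed, 39 passed the level filter, and 28 of these 39 were higher in replicate 1 in all 3 groups and 0 in replicate 2. Without the shRNA2 pair, all 39 had replicate 1 higher in both other groups. In 7 each of the 3 differences was at least 0.5, and 29 had an unadjusted p under 0.05 with replicate 1 higher.

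CDC6, which loads the MCM helicase onto origins, had the largest mean difference of the list. It read 8.30 and 6.32 with shRNA1, 4.22 and 2.86 with shRNA2, and 8.25 and 6.81 with scramble. The mean difference was 1.59 ± 0.15, a 3.02-fold higher level in replicate 1. The helicase subunits MCM2 and MCM5 gave 1.45, 0.52 and 1.23, and 1.48, 0.55 and 1.26, in the order shRNA1, shRNA2 and scramble. MCM10, which joins the helicase at firing, ran against the others in shRNA2, with -0.55 there beside 1.51 and 1.32.

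The origin-firing genes had a median of 0.82 over 6 tested genes. GINS2, a subunit of the active helicase, gave 1.36, 0.50 and 1.41, whereas CDC45, its partner, gave 1.68 and 1.26 and stood at the same value on both shRNA2 arrays, 3.05. Clamp and Okazaki genes had a median of 0.56 over 8. PCNA, the sliding clamp, read 12.74 and 11.50 with shRNA1, 11.48 and 10.98 with shRNA2, and 12.72 and 11.50 with scramble. Its 3 differences of 1.23, 0.50 and 1.21 were close to those of FEN1, the flap nuclease, at 1.22, 0.51 and 1.24. Polymerase and primase genes had the lowest median of the replication roles, 0.44 over 9, and POLD1 was split between 0.32, -0.82 and 0.96.

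Of 21 nucleotide synthesis genes tested, 14 had replicate 1 higher in all 3 groups and 2 had replicate 2 higher, and the median was 0.28. TK1, thymidine kinase, read 9.95 and 8.02 with shRNA1, 5.0 and 4.59 with shRNA2, and 9.51 and 7.80 with scramble. RRM2, the S phase subunit of ribonucleotide reductase, gave 1.26, 0.70 and 0.99, and TYMS, thymidylate synthase, 1.12, 0.52 and 0.99. The inosine monophosphate dehydrogenase IMPDH2 lay on the other side, at -0.09, -0.19 and -0.15. Among the G1 regulators, 8 of 16 genes were higher in replicate 1 in all 3 groups and 1 in replicate 2. They included CCNE2, a cyclin of S phase entry, at 1.75, 0.61 and 1.17, and the transcription factor E2F2, at 1.45, 0.91 and 1.59. CCND1, cyclin D1, gave -0.15, 0.09 and -0.14.

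Ribosome biogenesis genes read higher in replicate 1 in all groups, with smaller but more even differences. Of 34 listed, 29 were tested, and 26 of these were higher in replicate 1 in all 3 groups and 1 in replicate 2. The median was 0.39, with 0.51 in shRNA1, 0.33 in shRNA2 and 0.36 in scramble. In 6 each difference was at least 0.5, and 24 had an unadjusted p under 0.05 with replicate 1 higher. Replicate number took 44.3% of the list's variation over the 6 arrays and group 51.9%, against 9.99% and 86.3% over all genes.

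LYAR, a nucleolar factor, gave 0.96, 0.58 and 0.86, and MRTO4, a factor of large-subunit maturation, 0.99, 0.55 and 0.80, which were the largest mean differences of the list. BYSL, a factor of small-subunit assembly, read 8.38 and 7.63 with shRNA1, 8.94 and 8.38 with shRNA2, and 9.15 and 8.38 with scramble. Its mean difference was 0.69 ± 0.08. UTP20, part of the small-subunit processome, gave 0.72, 0.52 and 0.60, and NOP16, a nucleolar factor of the large subunit, 0.98, 0.55 and 0.70. The abundant nucleolar proteins were nearly level: NPM1 read 15.1 to 15.2 on all arrays with a mean difference of 0.05, and FBL, which methylates ribosomal RNA, had 0.04. The part of the high signal of NPM1 in its small difference was not tested. UBTF, a factor of ribosomal DNA transcription, was the 1 member higher in replicate 2 throughout, at -0.27, -0.16 and -0.14. MYC, a regulator of this program, read 11.22 and 10.25, 10.70 and 9.88, and 11.39 and 11.09, with differences of 0.96, 0.82 and 0.30.

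The subunits of the ribosome itself differed by compartment in their replicate differences. Of 38 mitochondrial ribosome genes, 32 were higher in replicate 1 in all 3 groups and 1 in replicate 2, with a median of 0.31. MRPL42 gave 0.73, 0.47 and 0.56, and MRPL4 gave 0.66, 0.38 and 0.52, while MRPS27 gave -0.11, -0.33 and -0.19. The median was 0.21 with probe sets of the _s and _x types dropped, whose probes may bind several transcripts. The 28 other probe sets of these genes had a median of 0.14, with 14 higher in replicate 1 in all 3 groups and 3 in replicate 2. The other probe sets of ribosome biogenesis genes had a median of 0.35, with 17 of 26 higher in replicate 1 in all groups and 1 in replicate 2. Of the 38 cytosolic ribosomal protein genes tested, 21 were higher in replicate 2 and 2 in replicate 1 in all groups, but with mean differences of -0.11 to 0.04 and a median of -0.04, and none had an unadjusted p under 0.05. RPL29 and RPL19 had the largest of these, -0.11 each. RPL29 was higher in replicate 2 in all groups, at -0.14, -0.12 and -0.08. RPL19 was mixed, at 0.01 in shRNA1, -0.34 in shRNA2 and -0.005 in scramble. RPL29 and RPL19 had mean levels of 14.39 and 14.38, and MRPL42 and MRPL4 of 11.031 and 7.718. Over probe sets the SD of the mean difference was 0.20 at levels of 12 and above. It was 0.27 at 10 to 12 and 0.34 at 6 to 8. The part of level in the contrast between the compartments was not tested. Oxidative phosphorylation genes had a median of 0.05 over 45, with 15 higher in replicate 1 in all groups and 5 in replicate 2.

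Proteasome genes read higher in replicate 1 in 25 of 29 tested members in all 3 groups, and in replicate 2 in 0. The median was 0.29, with 0.29 in shRNA1, 0.19 in shRNA2 and 0.43 in scramble, and the largest median difference was in scramble. PSMD12, a subunit of the regulatory lid, read 11.12 and 10.38, 11.37 and 10.84, and 11.39 and 10.66, a mean difference of 0.67 ± 0.09. PSMD11, also of the lid, gave 0.51, 0.34 and 0.74. The core subunits PSMA7 and PSMB5 gave 0.54, 0.28 and 0.66, and 0.27, 0.32 and 0.62. The 23 other probe sets of these genes had a median of 0.25, with 16 higher in replicate 1 in all groups and 0 in replicate 2. In this list replicate number took more of the variation than group, 49.6% against 42.6%. Replicate number exceeded group in 17 of the 29 members, against 14% of all genes.

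Several secreted and signalling genes were among those with the largest shared differences. PTX3, a secreted pattern recognition protein, read 7.53 and 6.03 with shRNA1, 9.38 and 7.93 with shRNA2, and 9.21 and 7.74 with scramble. Its 3 differences were 1.49, 1.46 and 1.47, with an SD of 0.017. Their mean of 1.47 ± 0.07, with the limma SE, is 2.78-fold, while the groups differed in level. THBS1, the matrix protein thrombospondin, read 9.27 and 7.54, 10.99 and 9.65, and 8.64 and 7.35, with a mean difference of 1.46 ± 0.12. DKK1, a secreted Wnt antagonist, read 7.70 and 5.93, 9.19 and 8.08, and 7.70 and 6.08, with 1.5 ± 0.15.

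CCN2, a matricellular protein and a classical target of YAP and TEAD, read 10.39 and 8.62 with shRNA1, 9.05 and 7.88 with shRNA2, and 10.49 and 9.25 with scramble. Its mean difference was 1.39 ± 0.15. Other YAP and TEAD targets with replicate 1 higher were CCN1, at 1.58, 1.31 and 0.43, FJX1, at 0.86, 0.74 and 0.74, and AMOTL2, at 0.85, 0.63 and 0.59. Of 19 tested genes of this list, 8 were higher in replicate 1 in all 3 groups and 2 in replicate 2, a share of 8 in 19 beside 26.5% of all genes. AXL and PTPN14 of the same list had mean differences of 0.07 and 0.02, and NT5E lay on the other side, at -0.33.

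NF-kB target genes were higher in replicate 1 in 8 of 12 tested members in all 3 groups and in replicate 2 in 1. The list median was 0.42 in shRNA1, 0.57 in shRNA2 and 0.12 in scramble. TNFAIP3, an inhibitor of the pathway, read 7.78 and 6.79, 7.77 and 6.93, and 6.47 and 5.82. NFKBIA and NFKBIE, inhibitory subunits that are themselves targets, had mean differences of 0.75 and 0.55. ICAM1, an adhesion molecule, gave -0.25, -0.09 and -0.25. Only 12 of the 24 measured genes of this list passed the level filter.

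Immediate early genes were higher in replicate 1 in all 3 groups in 10 of 19 tested members and in replicate 2 in 2. The list median was 0.48 in shRNA1, 0.24 in shRNA2 and 0.08 in scramble. FOSL1, a subunit of AP-1, gave 1.42, 1.21 and 0.69, and ATF3, a stress-induced factor, 2.15, 1.43 and 0.30. EGR1, another of them, did not share this: it read 7.82 and 5.75 with shRNA1, 5.45 and 5.39 with shRNA2, and 8.25 and 8.40 with scramble. The inhibitors of differentiation ID1 and ID2 gave 2.02, 0.50 and 1.42, and 1.42, 0.92 and 1.60.

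The other genes with the largest shared difference on the replicate 1 side were NAV3, LOC101927253, LMO7, ITGAM, CCDC86 and IQGAP3. Their mean differences ranged from 1.13 in ITGAM to 1.61 in LMO7, at adjusted p of 0.061 to 0.062. ITGAM, an integrin subunit of myeloid cells, read 4.97 and 4.02, 6.03 and 4.69, and 4.27 and 3.17. It was the only 1 of 9 blood cell markers with a mean of at least 4, and the other 8 stood at the lowest value on all 6 arrays. The summed level of these 9 markers was 22.2 to 24.0 in replicate 1 arrays and 21.1 to 22.6 in replicate 2 arrays. With the other 8 at the lowest value, this sum varied through ITGAM alone. Of 10 fibroblast markers 8 stood at the lowest value on all arrays, and of 8 endothelial markers 0 reached a mean of 4.

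**Figure D4:**
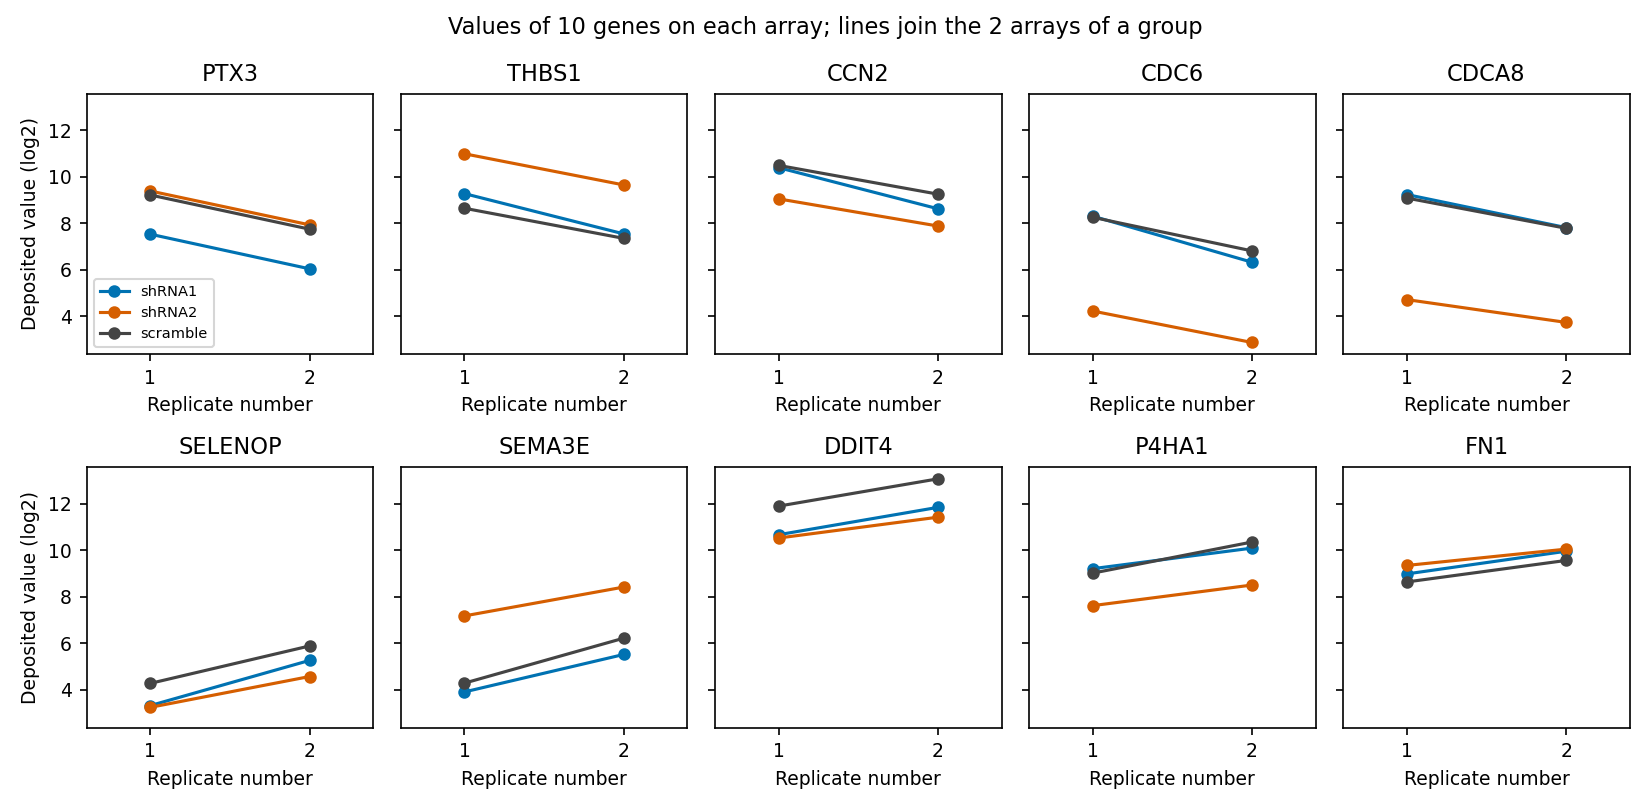
Deposited log2 values of 10 genes on each of the 6 arrays, with lines joining the arrays of a group. All lines of the upper row go down from replicate 1 to replicate 2 and all lines of the lower row go up, by 0.70 to 1.98, while the groups keep different levels.

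With tied probe sets left out, limma at an adjusted p under 0.05 called 522 of 9298 genes higher in replicate 1 (5.61%) and 485 higher in replicate 2 (5.22%). Among them were 31 of 44 mitosis genes, 15 of 38 DNA replication genes, 13 of 29 ribosome biogenesis genes, 5 of 38 mitochondrial ribosome genes and 4 of 29 proteasome genes on the replicate 1 side. On the replicate 2 side they held 6 of 16 hypoxia genes. None of these members was called in the main fit, and the counts varied with the setting. With the trend and robust prior, 33 mitosis, 17 mitochondrial ribosome and 20 proteasome genes were called higher in replicate 1. After median centring these counts were 29, 2 and 2, and with 1 probe set per gene 17, 1 and 1.

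On the other side, SELENOP, a secreted selenium carrier, read 3.31 and 5.26 with shRNA1, 3.24 and 4.56 with shRNA2, and 4.27 and 5.88 with scramble. Replicate 2 was higher in each group, and the mean difference was -1.63 ± 0.14, or 3.09-fold. SEMA3E, a secreted guidance cue, read 3.90 and 5.51, 7.17 and 8.41, and 4.28 and 6.21, with -1.60 ± 0.15. PI15, a secreted protease inhibitor, gave -1.22, -1.27 and -1.33, and EDIL3, an integrin ligand, -1.21, -1.01 and -1.22. THSD7A had the largest mean difference in this direction, -1.86 ± 0.34, but an uneven one, at -1.78, -1.04 and -2.76. The 15 genes with the largest shared difference on this side also included IGDCC4, PTP4A3, TENT5A, CLIP3, SPOCK3, CAPS2, CA11, TBC1D8B and LZTS2, with mean differences of -1.52 to -0.95.

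Part of the hypoxia response genes, each by its brightest probe set, read higher in replicate 2. Of 25 listed, 21 were tested. Of these, 11 were higher in replicate 2 in all 3 groups and 0 in replicate 1, against 29% and 26.5% of all genes. The other 10 were mixed. The median was -0.22, with -0.09 in shRNA1, -0.15 in shRNA2 and -0.37 in scramble. Each difference was at least 0.5 in 3 genes, against 1.4% of all genes, and 9 had an unadjusted p under 0.05 with replicate 2 higher, against 15.8%.

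DDIT4, an inhibitor of mTORC1 that is induced by hypoxia and other stresses, read 10.67 and 11.85 with shRNA1, 10.53 and 11.42 with shRNA2, and 11.90 and 13.07 with scramble. Its mean difference was -1.08 ± 0.09 (limma adjusted p = 0.061, and 0.026 without tied probe sets). P4HA1, a collagen prolyl hydroxylase, read 9.21 and 10.09, 7.61 and 8.50, and 9.01 and 10.35. BNIP3, a mitophagy receptor, read 11.40 and 12.18, 11.62 and 12.50, and 11.68 and 12.88. These 3 were the genes past 0.5 in each group, DDIT4, P4HA1 and BNIP3, with mean differences of -1.08, -1.04 and -0.96.

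Other members were smaller or split. PDK1, which keeps pyruvate out of the mitochondria, gave -0.42, -0.55 and -0.89, and VEGFA, the angiogenic factor, -0.55, -0.14 and -0.73. PFKFB4, an enzyme that sets the level of a glycolysis activator, was uneven, at -0.09, -1.28 and -1.79. ADM, adrenomedullin, ran the other way in 2 groups, at 1.62, -0.08 and 0.47. HIF1A, the regulator itself, gave -0.22, 0.07 and -0.05, with 12.39 to 12.61 on all arrays. Of the 12 remaining probe sets of these genes, 5 had replicate 2 higher in all 3 groups and 3 replicate 1, with a median of -0.02, so the other probe sets did not share 1 direction. The core of the hypoxia response element (ACGTG or GCGTG) was in 14 of 18 promoters of the list, 77.8%, and in 59.4% of the promoters of tested genes. Among genes that met the rule of size, it was in 54.5% of 110 promoters with replicate 2 higher. With replicate 1 higher it was in 58.7% of 138, and among the replication genes in 67.6% of 34.

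Glycolysis genes were higher in replicate 2 in 11 of 18 tested members in all 3 groups and in replicate 1 in 1, with a median of -0.15. ALDOA, aldolase, read 13.60 and 14.03, 13.54 and 13.93, and 13.43 and 13.80, an even difference of -0.40 ± 0.07. The glucose transporter gene SLC2A3 gave -0.90, -0.21 and -1.28, and GPI, glucose phosphate isomerase, -0.53, -0.43 and -0.73. ENO2, an enolase, gave -0.31, -0.53 and -0.92. ENO1, LDHA and GAPDH had mean differences of -0.01, -0.05 and -0.05.

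Matrix and cell surface genes were split by gene. Of 18 tested extracellular matrix genes, 9 were higher in replicate 2 in all 3 groups and 2 in replicate 1. FN1, fibronectin, read 8.98 and 9.96, 9.35 and 10.05, and 8.63 and 9.56, with -0.87 ± 0.09. FBN1, fibrillin, gave -0.77, -0.70 and -0.64, and SPARC -0.65, -0.42 and -0.74, in contrast to THBS1 of the same list. ERBB3, a receptor of the EGFR family, gave -0.80, -1.14 and -1.05, and S100A4, a calcium-binding protein, -1.33, -0.82 and -1.28. ERK feedback and output genes were split, with 5 of 16 higher in replicate 1 in all 3 groups, 6 in replicate 2 and 5 mixed. The inhibitors SPRY1 and SPRY2 of this list gave -0.53, -0.79 and -1.03, and -0.46, -0.72 and -0.82, while FOSL1 lay on the other side.

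CDK inhibitors and pocket proteins were split, with 3 of 10 higher in replicate 1 in all 3 groups, 4 in replicate 2 and 3 mixed. CDKN3, a phosphatase that acts on CDKs, had the largest mean difference of the list and gave 1.29, 0.33 and 0.97, whereas CDKN1C, p57, was higher in replicate 2 in each group, by 0.73, 0.58 and 1.01. The pocket protein gene RBL2 gave -0.57, -0.29 and -0.54, whereas RBL1, its relative, gave 0.82, 0.05 and 0.17. CCNG2, a cyclin found in cells leaving the cycle, read 10.40 and 11.06, 10.52 and 11.17, and 10.61 and 11.40, with -0.70 ± 0.08. Of 16 histone genes, 8 were higher in replicate 2 in all groups and 4 in replicate 1. The replication-dependent ones, whose messages normally lack a poly(A) tail, included H2BC4 at -1.28, -0.15 and -1.15, H2BC5 at -1.0, -0.24 and -0.84 and H2AC8 at -1.06, -0.32 and -0.62, whereas the variant gene H2AX, which encodes the histone phosphorylated at DNA breaks, gave 0.83, 0.26 and 0.65. Cross-hybridisation between histone genes can mix these values.

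Reference genes had a median difference of 0.01 over 14. ACTB, EEF1A1 and YWHAZ had mean differences of 0.04, 0.01 and 0.02. TFRC, the transferrin receptor, stood out among them with 0.93, 0.33 and 0.92, followed by TBP, the TATA-binding protein, with 0.44, 0.08 and 0.30.

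RNA quality probe sets moved with replicate number. The gap between the 3′ and 5′ probe sets of ACTB was 1.93 in replicate 1 and 2.56 in replicate 2 with shRNA1, 1.93 and 2.42 with shRNA2, and 1.99 and 2.37 with scramble. A wider gap is read as less complete cDNA or RNA. The same gap of GAPDH lay near 0 on all arrays and was higher in replicate 2 by 0.06 to 0.10. The 18S rRNA probe sets read higher in replicate 2 by 0.03 to 0.31 on all 3 probe sets and in all 3 groups, and the 18 hybridisation spike-in probe sets differed by -0.24 to 0.32 with a median of -0.05. The part of RNA quality in the differences above was not tested.

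**Figure D5:**
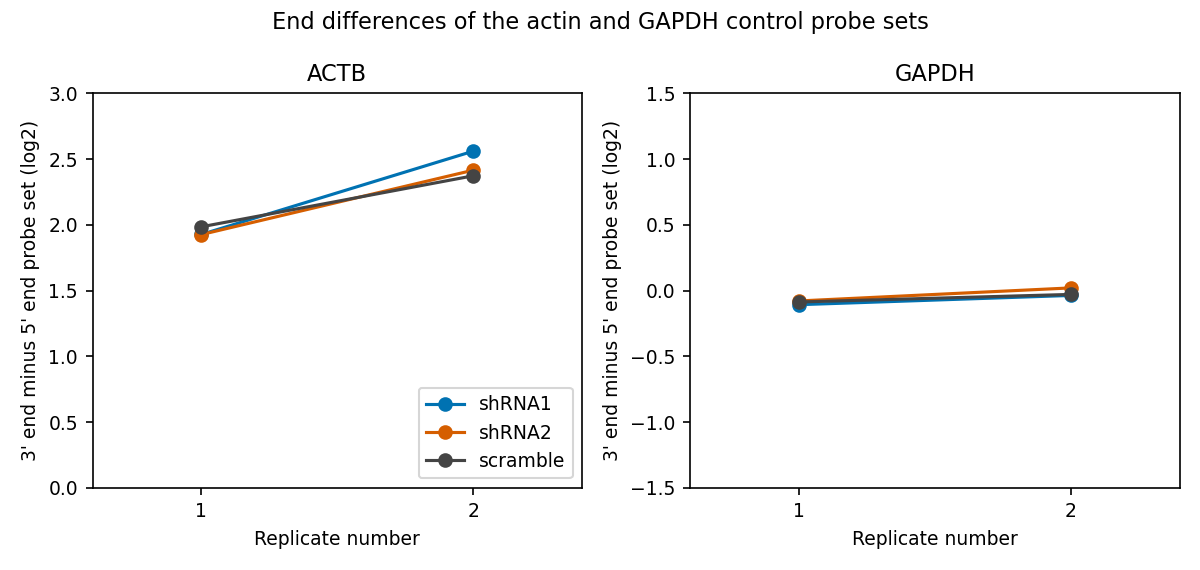
Log2 gap between the 3′ and 5′ control probe sets of ACTB and GAPDH on each array, with lines joining the arrays of a group. The ACTB gap is 1.93 to 1.99 on replicate 1 arrays and 2.37 to 2.56 on replicate 2 arrays, and the GAPDH gap stays within 0.11 of 0.

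Over probe sets the SD of the mean difference went from 0.36 at mean levels of 4 to 6 to 0.20 at 12 and above. The share with 1 sign in all 3 groups was 38.7% in the dimmest class and 64.2% at levels of 10 to 12. Chromosome medians lay between -0.06, on chromosome X, and 0.02.

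Some genes differed in opposite directions between groups. In 2003 genes (19.0%) shRNA2 had the sign opposite to both other groups, against 942 (8.95%) for shRNA1 and 1036 (9.84%) for scramble. These counts have no size limit. The opposing difference was at least 0.5 in 84 genes for shRNA2, 35 for shRNA1 and 31 for scramble. MMP1, an interstitial collagenase, read 9.0 and 7.80 with shRNA2 and 5.39 and 6.64 with scramble, while both shRNA1 arrays read 2.84. DDIT3, CHOP, a stress transcription factor, was higher in replicate 2 only with scramble, at 10.06 and 10.89, and gave 0.40 and 0.09 in the others. With 1 pair per group, differences between groups have no test.

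Replicate number also bears on how many probe sets are called between the study's groups. Over the 6 arrays, group took 84.7% of the variation summed over tested probe sets, replicate number 10.8% and the remainder 4.46%. In 3411 probe sets (15.3%) replicate number took more than group. The comparison of both RBP2 shRNAs with scramble called 809 probe sets higher (3.62%) and 1138 lower (5.1%) with limma at an adjusted p under 0.05 without the replicate number, and 2844 higher (12.7%) and 3224 lower (14.4%) with the replicate number as a block. Leaving out any array without the block gave 0 calls.

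Among genes the calls went from 445 higher (4.23%) and 581 lower (5.52%) to 1527 higher (14.5%) and 1618 lower (15.4%). The median log2 fold change of the mitosis list in this comparison was -1.54, and 8 of 44 members were called lower without the block and 40 with it. The median SE of a member went from 0.40 to 0.14. This fall was carried by shRNA2: the list's median difference from scramble was -0.004 with shRNA1, where 22 of 44 members read lower, and -3.12 with shRNA2, where all 44 did. DNA replication went from 2 to 26 of 39 members called lower, with a median of -0.84, made up of -0.13 with shRNA1 and -1.70 with shRNA2. Hypoxia went from 0 to 6 of 21 called lower, with a median of -0.22, being -0.49 with shRNA1 and -0.13 with shRNA2. These medians per shRNA are descriptions with no test. Ribosome biogenesis, whose median was -0.13, went from 0 called members to 1 higher and 4 lower with the block.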

How the data were processed

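The authors deposited log2 expression values of 6 Affymetrix arrays, made with GCRMA per the submitters' processing notes, with no version stated there. The method corrects background and normalizes between arrays. On each array 40.2% to 40.9% of values stood at a floor of 2.24, and tied dim values carry no difference. Values were used as deposited. Of 22330 probe sets with a mean log2 value of at least 4, 4280 (19.2%) had tied values. Probe sets were named through the platform annotation, and 10519 of 10526 genes matched RefSeq.

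Replicate 1 minus replicate 2 was fitted in R 4.3.3 with limma 3.58.1 and group as a block. P-values were two-sided, adjusted by Benjamini-Hochberg over all probe sets and called under 0.05. The fit was tested on simulated data. Replicate numbers came from the titles and were matched across groups by number alone. The within-group differences correlated at 0.48 to 0.70, but this uses the differences described here and is no separate check of the numbering. The precision is limited by the 6 arrays, and the median limma SE was 0.10.

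Genes were grouped in 54 lists, 49 of them with at least 5 tested genes. Named genes were KDM5A, the 15 in each direction with the largest smallest-of-3 difference (as none was called), the 2 with the largest absolute difference per list, and 5 per group that opposed both other groups; rule-named genes of lists not described are not printed, and other list members are examples picked after their values were seen. The members, lists and tests were chosen with earlier results of these data known. Alternatives covered filters, ties, scaling, the block, the prior and leaving out each array.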

Additional observations from a re-analysis of the deposited data

Results flagged for a closer look

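Of the genes in which 1 group's arrays differed in the direction opposite to both other groups, the 5 with the largest such difference in each group are given here, with the 1 gene list that did so with medians of at least 0.1 in size in all 3 groups. None of these differences between groups was tested, since each group has 1 pair. The shRNA1 pair stood apart in WIPF1 (1.11), ZNF354B (1.06), SLC26A6 (0.89), METRNL (-0.87) and TNFRSF21 (0.86). The shRNA2 pair stood apart in NUP62CL (-1.28), HMX2 (-1.25), PROSER2 (-0.96), TNFSF4 (0.93) and LEF1 (-0.90). The scramble pair stood apart in MMP1 (-1.26), RNF32 (-0.89), GHR (0.87), DDIT3 (-0.83) and TRIM66 (-0.81). The integrin list had a median of 0.17 in shRNA2, -0.36 in shRNA1 and -0.20 in scramble, although its members with the largest mean differences, ITGB4 and ITGA3, were higher in replicate 2 in all 3 groups. Some of these genes lay near the level filter: RNF32 read 4.04 to 5.31 and TRIM66 3.96 to 5.47.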

How the results depend on the processing

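The count of 0 probe sets called between replicates became 2719 at a mean of at least 6, 1 with no filter, 361 with 1 probe set per gene, 2053 without tied probe sets, 1972 after renewed quantile normalization, 1903 after median centring, 3212 with trend and robust prior, and 3873 at an adjusted p under 0.10, a threshold added after seeing the data. It stayed 0 without the group block, without cross-hybridising probe sets and without any 1 array (0 to 0; unadjusted p under 0.05 in 3694 to 6883). Leaving out 1 array drops its pair and leaves 1 residual degree of freedom. Of the 30 genes with the largest shared differences, 28 remained without ties and all 28 were called, against 0 of 30 in the main fit. These genes were picked by the same differences, so their calls are no separate support. The 706 probe sets past 0.5 in every group were 46 past 1, and 940 to 2070 without 1 array (940 without shRNA1, 1104 without scramble, 2070 without shRNA2, and with only 2 pairs to meet the rule). The 1947 knockdown calls became 6068 with the replicate block, and 0 to 0 without 1 array. Medians of the 6 leading lists kept their sign in all settings, and the mitochondrial ribosome list moved to 0.21 without cross-hybridising probe sets. COL1A1, at 0.017 as reported, turned to -0.0012 after quantile normalization and -0.0077 after centring, and ranged from -0.20 to 0.13 without 1 array. RPL19, at -0.11, ranged from -0.17 to 0.0043 without 1 array. The labels do not say what a replicate number stands for, and 3 pairs leave a two-sided exact p of 0.25 at best.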

Other observations

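Interferon response genes were higher in replicate 2 in 15 of 30 tested members in all 3 groups and in replicate 1 in 3, with PARP9 at -0.57, -0.55 and -0.72 and PSMB9, an immunoproteasome subunit, on the other side at 0.56, 0.47 and 0.59. Heat shock genes were higher in replicate 1 in 11 of 18 and in replicate 2 in 2, with HSPE1, the mitochondrial co-chaperonin, at 0.39, 0.29 and 0.86, DNAJB6, another co-chaperone, at 0.44, 0.50 and 0.55, and HSPB1 at -0.55, -0.63 and -0.13. Of 12 polyamine genes, 8 were higher in replicate 1 in all groups, with SRM, spermidine synthase, at 0.79, 0.09 and 0.74. PAOX, an oxidase of acetylated polyamines, gave 0.85, 0.15 and 0.25, but its 1 other tested probe set did not share the sign of its mean difference. Beside these 3 counts stand 26.5% and 29% of all genes with replicate 1 and replicate 2 higher in all 3 groups.

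Of 29 focal adhesion and actin genes, 14 were higher in replicate 1 in all groups and 6 in replicate 2, with the actin-binding gene TAGLN2 at 0.79, 0.43 and 0.82, the tropomyosin gene TPM4 at 0.56, 0.72 and 0.72 and the kinase gene PTK2 at -0.25 in each group. The neuroendocrine list had 6 tested genes of 15 measured, and 4 of them were higher in replicate 2 in all groups and 0 in replicate 1, with a median of -0.48. CHGB, a granin of secretory granules, read 3.8 and 5.36 with shRNA1, 8.47 and 9.10 with shRNA2, and 6.59 and 7.64 with scramble. CRH, a neuropeptide, gave -0.61, -0.63 and -0.81.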
